A study of Mus musculus with 6 samples.

Results

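Fgf21 and Gdf15, which encode stress hormones secreted by the liver, were examined together with Klb and Fgfr4, which encode the receptor side of the FGF endocrine system in hepatocytes. The 4 genes were chosen by name out of 55385 genes in the deposited table. Liver RNA came from 6 mice of the C57BL/6 strain, all aged 6 weeks, in 3 groups of 2. Mice lacking Optn (Optn-/-, replicates 4 and 5) were given acetaminophen at 500 mg per kg into the peritoneum and sampled after 6 h. Wild-type mice (replicates 1 and 4) had the same dose, route and time. Wild-type control mice (replicates 3 and 6) had 200 µL of PBS by the same route, also for 6 h. How the Optn allele was made was not given in the sources used here, and Optn-/- mice without acetaminophen were not analysed here. Optn encodes optineurin, an adaptor that links ubiquitinated cargo to autophagy. The replicates are separate animals, 2 per group. The p-values rest on the spread between animals within groups, pooled over all 3 groups and moderated by that of other genes.

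FGF21 is a hormone of the FGF family that hepatocytes release in fasting, amino acid shortage and mitochondrial or endoplasmic reticulum stress, and it acts on cells that carry FGFR1 with the co-receptor beta-Klotho, the product of Klb. In hepatocytes beta-Klotho pairs mainly with FGFR4, and this pair receives the intestinal hormone FGF15, which represses bile acid synthesis. GDF15 is a distant member of the TGF-beta family that many stressed tissues release, and its receptor GFRAL, with the co-receptor RET, is confined to the hindbrain. Transcription factors of the integrated stress response, ATF4 and CHOP among them, are known to act on both hormone genes.

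In the deposited table Fgf21 (ENSMUSG00000030827) spans chr7:45613886-45615490 on the minus strand, and Gdf15 (ENSMUSG00000038508) spans chr8:70629393-70632456, also on the minus strand. Klb (ENSMUSG00000029195) spans chr5:65348314-65384007 on the plus strand and Fgfr4 (ENSMUSG00000005320) spans chr13:55152640-55168759 on the plus strand, all in GRCm38 coordinates. Fgf21 has 1 annotated transcript and Gdf15 has 2, all protein-coding, while Klb and Fgfr4 have 3 transcripts each, of which 1 is protein-coding. None of the 4 genes overlapped another gene of the table. The promoter windows of both hormone genes are shown because their transcripts rose with acetaminophen, and each runs from 250 bases before the RefSeq start site to 50 after it (RefSeq, GRCm38.p6, read 5′ to 3′ on the gene's strand). Capitals mark matches to 8 short motifs searched on both strands.
Fgf21, chr7:45615441-45615740, minus strand: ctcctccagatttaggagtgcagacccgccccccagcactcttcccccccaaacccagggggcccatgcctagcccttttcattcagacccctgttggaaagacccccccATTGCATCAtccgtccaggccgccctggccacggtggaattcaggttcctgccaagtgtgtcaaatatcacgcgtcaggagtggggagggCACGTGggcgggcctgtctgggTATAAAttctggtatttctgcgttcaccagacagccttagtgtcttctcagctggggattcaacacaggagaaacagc
Gdf15, chr8:70632407-70632706, minus strand: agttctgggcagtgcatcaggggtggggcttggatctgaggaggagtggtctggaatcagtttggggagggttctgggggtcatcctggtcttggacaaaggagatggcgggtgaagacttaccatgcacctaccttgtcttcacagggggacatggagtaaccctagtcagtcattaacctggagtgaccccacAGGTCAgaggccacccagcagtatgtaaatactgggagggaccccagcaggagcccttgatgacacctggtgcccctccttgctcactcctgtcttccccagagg
The first match in the Fgf21 window, at -140 to -132 from the start site, is to the C/EBP-ATF composite TGATGNAAN read on the opposite strand, and 3.95% of the 32851 promoter windows hold this motif. The second is the E-box CACGTG at -50 to -45, held by 7.15% of windows, and the third is the TATA motif TATAAA at -28 to -23, held by 13.6%. In the Gdf15 window the only match is the nuclear receptor element AGGTCA at -55 to -50, which 16.3% of windows hold. The other motifs searched were the cyclic AMP response element TGACGTCA (1.79% of windows), AP-1 TGANTCA (7.81%), the antioxidant response element core TGACNNNGC (12.4%) and EGR GCGTGGGCG (0.612%). None of these other motifs matched in either window, and the marked matches do not overlap each other. A second, downstream Gdf15 window held CACGTG, the Klb window held TGACNNNGC at -67 to -59, and the Fgfr4 window held none of the 8. These matches are letters in a window and carry no measurement of binding.

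Total counts were 62.5 to 77.3 M (1 M is 1000000 counts) in Optn-/- acetaminophen livers, 66.0 to 71.1 M in wild-type acetaminophen livers and 59.1 to 75.9 M in controls. Optn itself was at 0.316 and 0.457 FPKM (fragments per kilobase per 1000000 fragments) in the Optn-/- livers, 9.17 and 9.19 FPKM in wild-type acetaminophen livers and 20.95 and 18.73 FPKM in controls. Alb, a defining hepatocyte gene, took 6.69% to 9.94% of each library's counts, and adipocyte markers summed to 2.55 to 6.76 CPM with Lep at 0 counts. The libraries fell into a pair of sets by transcripts of other tissues. Skeletal muscle markers summed to 4.04 and 4.70 CPM in the Optn-/- livers, 69.8 and 79.4 CPM in wild-type acetaminophen livers, and 105 CPM in control 3 but 3.89 CPM in control 6. Both Optn-/- libraries thus lie in the set of control 6 and both wild-type acetaminophen libraries in the set of control 3, so genotype and set cannot be told apart among treated livers except through the controls.

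Wild-type livers given acetaminophen were compared with wild-type controls to ask how the drug moves the hormone and receptor transcripts. Both hormones rose and neither receptor-side gene did. Of the 4 genes, 2 rose and 0 fell at an adjusted p under 0.05 (edgeR quasi-likelihood test, Benjamini-Hochberg over the 11677 genes tested), beside 14.3% of all tested genes called in either direction, 8.36% of them higher and 5.92% lower. With scaling to total counts in place of TMM (trimmed mean of M values), the share of calls that were higher is 32.9% in place of 58.5%, and the median log2 fold change of all tested genes is -0.19 in place of 0.03. In a bulk liver sample, a change in the number of cells of a type and a change in RNA per cell cannot be told apart.

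**Figure D1:**
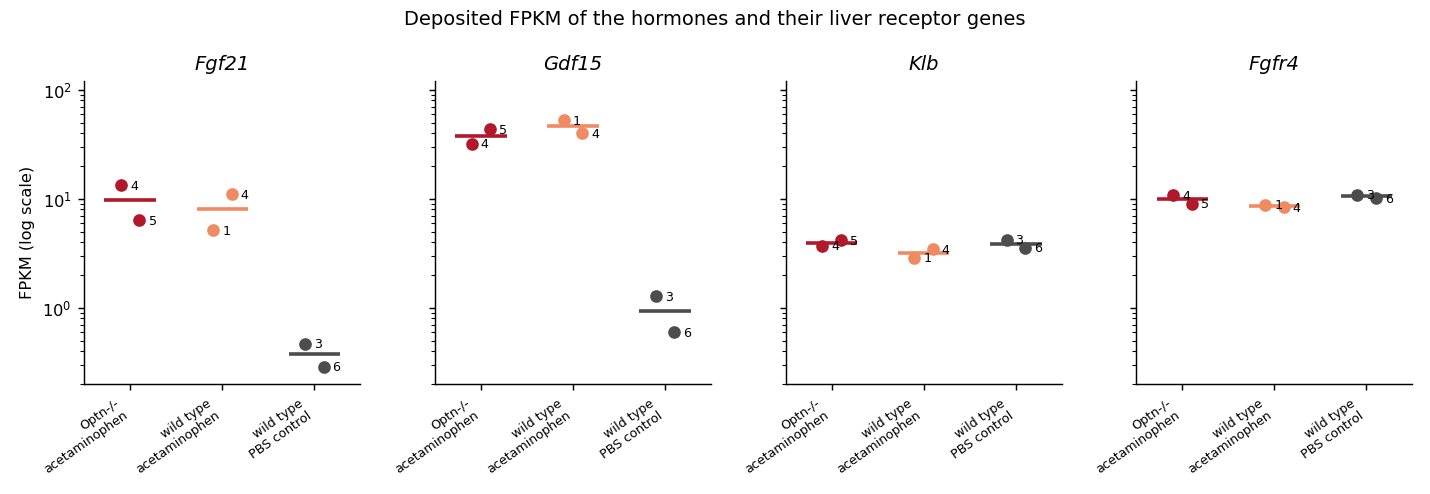
Deposited FPKM (log axis) of the 4 genes in each library, with Optn-/- acetaminophen, wild-type acetaminophen and wild-type control libraries from left to right, replicate numbers beside the points and the group mean as a line. Fgf21 and Gdf15 lie at 5.12 to 52.65 FPKM in all treated livers and at 0.288 to 1.27 FPKM in controls, while Klb and Fgfr4 lie between 2.89 and 10.87 FPKM throughout.

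Fgf21 was read at 5.12 and 11.04 FPKM (349 and 810 counts) in wild-type acetaminophen livers 1 and 4, against 0.469 and 0.288 FPKM (29 and 23 counts) in control livers 3 and 6. Both treated livers lay above both controls, and the treated pair differed 2.15-fold from each other on the CPM scale. The group means were 8.08 ± 4.19 FPKM in wild-type acetaminophen livers and 0.378 ± 0.128 FPKM in controls (SD, n = 2 each). The log2 fold change was 4.61 ± 0.61 (standard error, edgeR adjusted p 0.00965), a 24.4-fold difference with a 95% interval of 8.7 to 68.6. Fgf21 ranked 113 among the 11677 tested genes by fold change. Seen within one library, it moved to the percentile 66.0 and 79.9 of tested genes by FPKM in the treated wild-type livers, against 6.97 and 3.2 in the controls. The log2 fold change was 4.0 without wild-type acetaminophen replicate 4, the higher of the pair (adjusted p 0.0223).

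Gdf15 was at 52.65 and 39.94 FPKM (6970 and 5704 counts) in wild-type acetaminophen livers 1 and 4, against 1.27 and 0.598 FPKM (153 and 92 counts) in control livers 3 and 6. The groups did not overlap, and the treated pair differed 1.32-fold while the control pair differed 2.13-fold. The group means were 46.3 ± 8.98 FPKM in wild-type acetaminophen livers and 0.936 ± 0.478 FPKM in controls (SD, n = 2 each). The log2 fold change was 5.85 ± 0.45 (edgeR adjusted p 0.00243), a 57.5-fold difference with a 95% interval of 26.9 to 123, and its rank was 50 among tested genes. Without control replicate 3, the higher control, it was 6.50 (adjusted p 0.00977). Within the muscle-marker set alone, the treated wild-type livers stood at 52.65 and 39.94 FPKM of Gdf15 and 5.12 and 11.04 FPKM of Fgf21, against 1.27 and 0.469 FPKM in control 3.

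Klb, the co-receptor gene, was at 2.89 and 3.43 FPKM in wild-type acetaminophen livers 1 and 4, against 4.2 and 3.54 FPKM in control livers 3 and 6. The FPKM values do not overlap between the groups, but TMM-scaled CPM values do. The log2 fold change was -0.08 ± 0.17 (95% interval -0.49 to 0.32, edgeR adjusted p 0.769), and it turned to 0.01 without wild-type acetaminophen replicate 1 and to 0.06 without control replicate 3. With total count scaling it was -0.30.

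Fgfr4, the receptor kinase gene of the pair, was at 8.81 and 8.4 FPKM in wild-type acetaminophen livers 1 and 4, against 10.87 and 10.1 FPKM in control livers 3 and 6. As for Klb, the FPKM groups are separate and the TMM-scaled groups overlap. Its log2 fold change was -0.07 ± 0.15 (95% interval -0.45 to 0.30, edgeR adjusted p 0.781), and -0.29 with total count scaling. A decrease of Klb or Fgfr4 of more than 0.49 or 0.45 on the log2 scale lies outside these intervals.

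**Figure D2:**
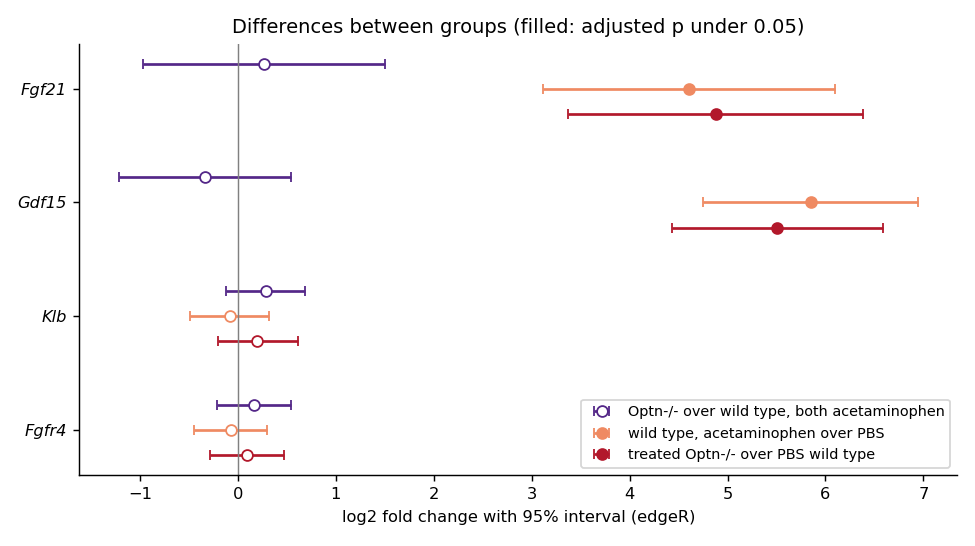
Log2 fold changes (x axis) of the 4 genes with 95% intervals as bars, for Optn-/- over wild type with acetaminophen, wild-type acetaminophen over control, and Optn-/- acetaminophen over wild-type control. Filled points passed an adjusted p of 0.05, and these are Fgf21 and Gdf15 in both comparisons with controls.

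Optn-/- and wild-type livers, both given acetaminophen, were compared to ask whether loss of optineurin alters the hormone response. None of the 4 genes passed the test, and their log2 fold changes lay between -0.34 and 0.29. Of the 4 genes 0 were called by edgeR, beside 0.103% of all tested genes (6 higher and 6 lower, 0.0514% each), and 0 were called by DESeq2 or limma. An unadjusted p under 0.05 was seen for 0 of the 4, and for 1024 of all 11677 tested genes.

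Fgf21 was at 13.23 and 6.36 FPKM (1057 and 412 counts) in Optn-/- livers 4 and 5, against 5.12 and 11.04 FPKM in wild-type acetaminophen livers 1 and 4. The highest value was Optn-/- replicate 4 and the lowest was wild-type replicate 1, but the other 2 values were ordered the other way, so the groups overlap. The means were 9.8 ± 4.85 FPKM in Optn-/- and 8.08 ± 4.19 FPKM in wild-type acetaminophen livers (SD, n = 2 each). The log2 fold change was 0.27 ± 0.50 (edgeR adjusted p 0.916), with a 95% interval from 0.511-fold to 2.83-fold. Its direction turned to -0.39 without Optn-/- replicate 4 and to -0.16 without wild-type acetaminophen replicate 1.

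Gdf15 was at 31.99 and 43.22 FPKM (4979 and 5441 counts) in Optn-/- livers 4 and 5, against 52.65 and 39.94 FPKM in wild-type acetaminophen livers 1 and 4. These groups overlap as well, with Optn-/- replicate 5 above wild-type replicate 4. The means were 37.6 ± 7.94 FPKM in Optn-/- and 46.3 ± 8.98 FPKM in wild-type acetaminophen livers (SD, n = 2 each). The log2 fold change was -0.34 ± 0.36 (edgeR adjusted p 0.828), with an interval from 0.431-fold to 1.45-fold. With a library set term, an alternative chosen after seeing the data in which genotype is read only through the controls, the Gdf15 log2 fold change was 0.78 ± 0.42 and that of Fgf21 was 0.98 ± 1.0 (edgeR adjusted p 1.0 for both).

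The other 2 genes were close between genotypes. Klb was at 3.71 and 4.16 FPKM in Optn-/- livers, against 2.89 and 3.43 FPKM in wild-type acetaminophen livers, with both Optn-/- values above both wild-type values. Its log2 fold change of 0.29 ± 0.17 (95% interval -0.12 to 0.69) did not pass the test (edgeR adjusted p 0.67). Fgfr4 was at 10.72 and 8.98 FPKM in Optn-/- livers, against 8.81 and 8.4 FPKM in wild-type acetaminophen livers, without overlap in FPKM but with overlap in TMM-scaled CPM, and its log2 fold change was 0.17 ± 0.15 (95% interval -0.21 to 0.54, edgeR adjusted p 0.795).

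Treated Optn-/- livers set against wild-type controls differ in both drug and genotype, and this comparison shares its livers with both of the others. Of the 4 genes 2 rose and 0 fell, beside 20.3% of tested genes called (12.2% higher and 8.05% lower). Fgf21 was higher in Optn-/- acetaminophen livers by 4.88 ± 0.61 on the log2 scale (edgeR adjusted p 0.00592), or 29.4-fold, and by 4.22 without Optn-/- replicate 4. Gdf15 was higher by 5.51 ± 0.44 (edgeR adjusted p 0.00187), or 45.5-fold, and by 6.16 without control replicate 3. Within the set of control 6, the Optn-/- livers were at 13.23 and 6.36 FPKM of Fgf21 against 0.288 FPKM, and at 31.99 and 43.22 FPKM of Gdf15 against 0.598 FPKM. Klb (0.20 ± 0.17, adjusted p 0.43) and Fgfr4 (0.09 ± 0.15, adjusted p 0.697) did not pass the test.

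Both hormones were high in all 4 treated livers, but not in the same order. From high to low, Fgf21 ran Optn-/- 4, wild type 4, Optn-/- 5 and wild type 1, and Gdf15 ran in exactly the opposite order. The ratio of Gdf15 to Fgf21 FPKM was 2.42 and 6.79 in Optn-/- livers 4 and 5, 10.3 and 3.62 in wild-type acetaminophen livers 1 and 4, and 2.72 and 2.08 in controls. The liver with the most Fgf21, Optn-/- 4, also had the lowest share of Alb (6.69%, against 9.51% to 9.94% in the other treated livers) and the largest total count. No correlation was computed over these 4 livers. Within the treated groups Fgf21 was among the more variable tested genes, since 94.6% of them differed less between the 2 Optn-/- livers and 92.7% between the 2 treated wild-type livers. The replicate ratio of Gdf15 exceeded that of 73.8% and 69.1% of tested genes in these groups. Between the controls it was Gdf15 that differed more, 2.13-fold (more than 92.7% of tested genes), against 1.62-fold for Fgf21 (more than 86.2%).

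**Figure D3:**
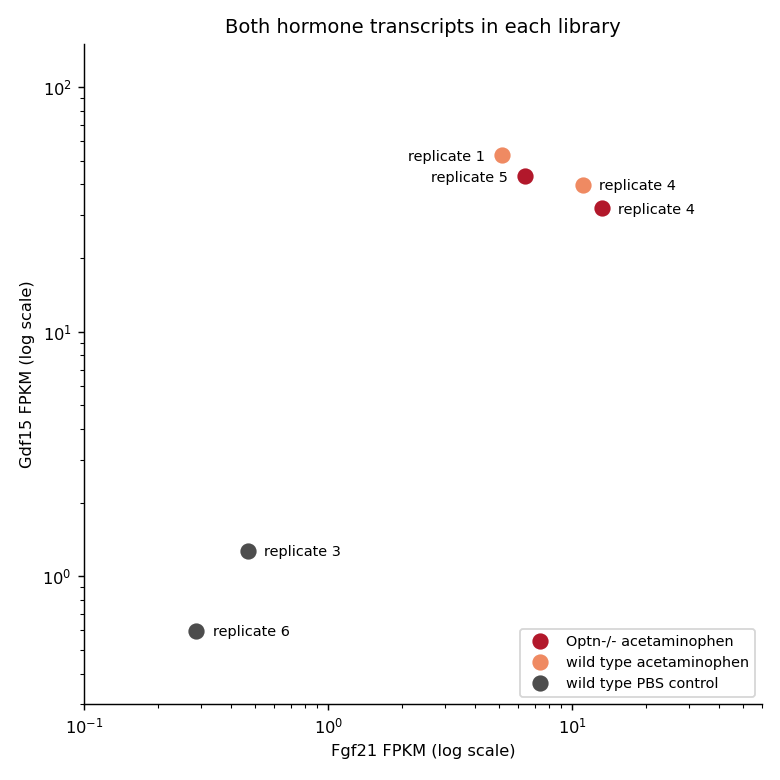
Gdf15 FPKM (y axis, log) against Fgf21 FPKM (x axis, log), 1 point per library with its replicate number and the 3 groups in colour. The 4 treated livers lie together at 5.12 to 13.23 FPKM of Fgf21 with both genotypes intermixed, and within them Gdf15 runs down from 52.65 to 31.99 FPKM as Fgf21 runs up.

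The genes whose levels followed each member most closely over the 6 libraries were taken as the 5 with the highest Pearson r of log2(CPM + 1) among 8491 genes, as a description that the split between treated and control livers largely sets. For Fgf21 they were Ptbp1 (r = 0.9949), Gtse1, Asns (r = 0.993), Txnrd1 and Brd2. Asns, which encodes asparagine synthetase, a classical target of ATF4, was at 8.38 and 4.9 FPKM in Optn-/- livers 4 and 5, 3.5 and 5.53 FPKM in wild-type acetaminophen livers 1 and 4, and 0.557 and 0.56 FPKM in controls. Its treated livers stand in the same order as for Fgf21. For Gdf15 they included Trp53inp1 (r = 0.9963), Cpd, Gars and Nr4a1. A high r reflects the pattern over libraries and not the size of the change. In wild-type acetaminophen livers over controls the log2 fold change was 0.35 for Cpd (edgeR adjusted p 0.103, not called) and 1.17 for Gars, beside 5.85 for Gdf15. Nr4a1, which encodes an immediate-early nuclear receptor, was at 13.47 and 20.75 FPKM in Optn-/- livers 4 and 5, 24.63 and 15.36 FPKM in wild-type acetaminophen livers 1 and 4, and 0.181 and 0.178 FPKM in controls, in the same order as Gdf15. These genes were picked for their likeness, and not all that were picked share the order of the treated livers. Trp53inp1 was highest in wild type 4 (47.66 FPKM), ahead of wild type 1 (42.07 FPKM), and Brd2 was higher in wild type 4 (29.64 FPKM) than in Optn-/- 4 (27.93 FPKM). The C/EBP-ATF composite, which 3.95% of all windows hold, matched in the promoter window of Asns and in that of Gars. It matched in no window of Ptbp1, Gtse1, Txnrd1, Brd2, Cpd or Nr4a1, of which Txnrd1 and Brd2 have 3 each. Trp53inp1 had 0 windows and could not be searched. The genes nearest Klb were Ctu1 (r = 0.9644), Hira, Ppfia1, Hgh1 and Nop2, and those nearest Fgfr4 were Wdr4 (r = 0.9863), Btd, Fads3, Nudc and Cdhr5.

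The receptor side was then described over all FGF receptors and Klotho co-receptors. Of 6 tested genes in this list, 0 were called in wild-type acetaminophen livers against controls by edgeR, 2 had an unadjusted p under 0.05, and DESeq2 and limma also called 0. Over all 11677 tested genes edgeR called 14.3%, and 3767 had an unadjusted p under 0.05. The median log2 fold change of the list was -0.12, beside 0.03 for all tested genes. In FPKM, a scale per gene length, Fgfr4 was the most abundant FGF receptor in every library, at 8.4 to 10.87, and it exceeded Klb 2.16- to 3.05-fold. Fgfr1, the usual partner of beta-Klotho for FGF21, was at 1.02 and 1.03 FPKM in Optn-/- livers, 0.904 and 1.28 FPKM in wild-type acetaminophen livers and 0.956 and 0.627 FPKM in controls. Treated wild-type and control livers overlap in FPKM but not in TMM-scaled CPM, where they stood at 10.6 and 14.2 against 9.53 and 6.15, and the log2 fold change was 0.66 ± 0.27 (edgeR adjusted p 0.155). Kl, the co-receptor gene for FGF23, had 0 to 8 counts and was not tested.

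Fgfr3 was the only gene of this list that edgeR called in any of the 3 comparisons. It was at 0.724 and 0.949 FPKM in Optn-/- livers, 0.905 and 1.24 FPKM in wild-type acetaminophen livers and 2.05 and 1.73 FPKM in controls, so that all treated livers lay below both controls. It fell in Optn-/- acetaminophen livers against controls (log2 fold change -0.99 ± 0.23, edgeR adjusted p 0.0333) and did not pass the test in wild-type acetaminophen livers (-0.61 ± 0.23, adjusted p 0.131). The Optn-/- call was lost without either Optn-/- replicate (adjusted p 0.128 without 4 and 0.0872 without 5), without either control (0.149 without 3 and 0.0706 without 6) and with a library set term (0.141). Fgfrl1, which encodes a receptor that lacks the kinase domain, varied within groups, at 3.57 and 7.59 FPKM in Optn-/- livers, 2.65 and 4.03 FPKM in wild-type acetaminophen livers and 7.23 and 6.55 FPKM in controls, and was not called. Fgfr2 lay at 1.12 to 1.79 FPKM, but its entry in the table spans 70 other genes, so its values are uncertain.

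**Figure D4:**
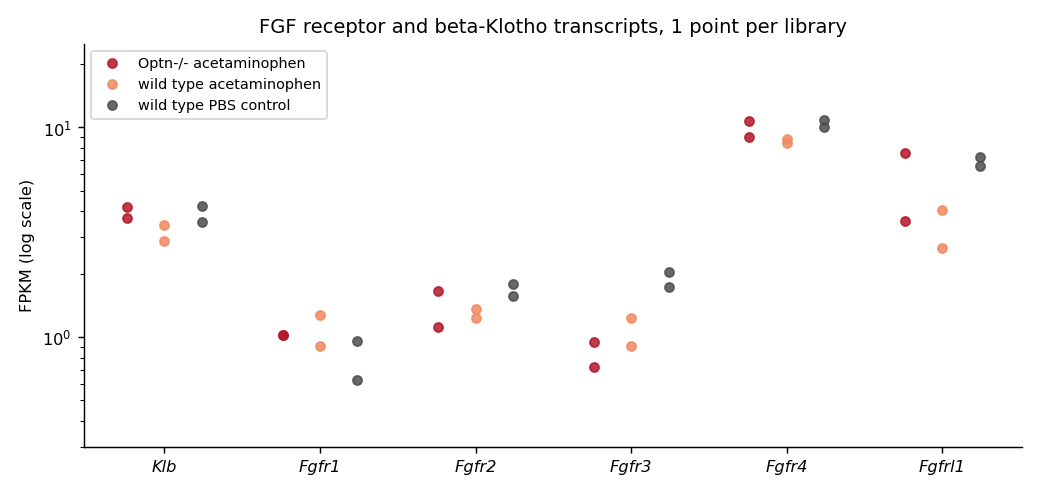
FPKM (log axis) of Klb and 5 FGF receptor genes, 1 point per library, with Optn-/- acetaminophen, wild-type acetaminophen and wild-type control libraries from left to right for each gene. Fgfr4 lies at 8.4 to 10.87 FPKM in every library, and Fgfr3 is lower in all treated livers than in the controls.

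For GDF15, the receptor gene Gfral had 0 counts in all 6 libraries, which allows up to 0.0507 CPM in the smallest library (3 counts, counting error only). Ret, its co-receptor gene, had 16 and 8 counts in Optn-/- livers, 0 and 99 counts in wild-type acetaminophen livers and 0 and 4 counts in controls. Neuronal markers summed to 120 CPM in the liver with 99 counts, wild-type acetaminophen 4, and to 6.35 to 13.6 CPM in the other libraries, and their part in the Ret count was not tested. Of the 5 tested protease genes in the same list, edgeR called 0 in wild-type acetaminophen livers against controls, beside 14.3% of all tested genes. An unadjusted p under 0.05 was seen for 3 of them, and for 3767 of all 11677 tested genes. DESeq2 called 1 of them lower and limma 2, beside 1419 and 1496 of all tested genes (limma on log2(FPKM + 0.5)). Pcsk7, a convertase gene, had the smallest p, at 3.02 and 3.25 FPKM in Optn-/- livers, 1.23 and 2.58 FPKM in wild-type acetaminophen livers and 4.3 and 5.09 FPKM in controls (-1.10 ± 0.33 on the log2 scale in wild type, edgeR adjusted p 0.0772). It overlaps Tagln and Rnf214 on the opposite strand. The convertase genes Pcsk6 and Pcsk5 had -0.38 ± 0.14 (adjusted p 0.131) and 0.57 ± 0.22 (adjusted p 0.135) in wild type. Furin, which encodes a convertase that cleaves pro-GDF15, was at 13.35 and 15.76 FPKM in Optn-/- livers, 12.45 and 16.39 FPKM in wild-type acetaminophen livers and 16.61 and 19.44 FPKM in controls (-0.11 ± 0.17 on the log2 scale in wild type, edgeR adjusted p 0.684). Fap, which encodes the protease that inactivates FGF21 in human blood, had 57 and 33 counts in Optn-/- livers, 12 and 8 in wild-type acetaminophen livers and 0 and 24 in controls, and was not tested.

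Among 22 FGF ligand genes, only Fgf21 and Fgf1 averaged 0.5 FPKM or more over all libraries and were tested. Fgf21 reached this mean only through the treated livers, as its controls were at 0.469 and 0.288 FPKM. In every library 8 of the ligand genes had 0 counts. Fgf15, the gut ligand of the FGFR4 and beta-Klotho pair, was one of these. Fgf1, a growth factor that binds all FGF receptors, moved opposite to Fgf21. It was at 4.85 and 4.99 FPKM in Optn-/- livers, 4.53 and 5.86 FPKM in wild-type acetaminophen livers and 12.7 and 21.19 FPKM in controls, so all treated livers lay below both controls. It fell in wild-type acetaminophen livers (log2 fold change -1.49 ± 0.25, edgeR adjusted p 0.0182), a call lost without either treated wild-type library (adjusted p 0.0847 without 1 and 0.0502 without 4).

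Among 13 tested genes of TGF-beta family ligands, 3 rose and 2 fell in wild-type acetaminophen livers against controls. Over all tested genes 8.36% rose and 5.92% fell. The median log2 fold change of the 13 was 0.04, beside 0.03 for all tested genes. Gdf15 was the most abundant of those that rose. Inhbb and Gdf9 reached the tested mean of 0.5 FPKM only through the treated livers. Inhba did not reach it, at 0.0966 and 0.126 FPKM in Optn-/- livers, 0.173 and 0.244 FPKM in wild-type acetaminophen livers and 1.44 and 0.643 FPKM in controls. Without a filter, 3 of these ligand genes rose and 3 fell. Inhbb, which encodes the activin beta B subunit, was at 2.66 and 2.25 FPKM in Optn-/- livers, 1.46 and 1.52 FPKM in wild-type acetaminophen livers and 0.137 and 0.301 FPKM in controls, and it rose in wild-type acetaminophen livers by 2.97 ± 0.39 on the log2 scale (edgeR adjusted p 0.0095). Gdf9, known as an oocyte growth factor, was at 1.06 and 0.643 FPKM in Optn-/- livers, 0.848 and 1.07 FPKM in wild-type acetaminophen livers and 0.0286 and 0.0653 FPKM in controls, where its counts were 4 and 11 (log2 fold change in wild type 4.50 ± 0.56, adjusted p 0.00841). The hepatocyte activin subunit genes Inhbe and Inhbc went the other way. Inhbe was at 3.4 and 2.1 FPKM in Optn-/- livers, 1.7 and 1.43 FPKM in wild-type acetaminophen livers and 12.05 and 10.1 FPKM in controls, and it fell by 2.61 in treated wild type (standard error 0.29, edgeR adjusted p 0.00608). Inhbc fell by 1.89 (standard error 0.30, adjusted p 0.0155), a call lost without either treated wild-type library (adjusted p 0.0628 without 1 and 0.0653 without 4) or control 3 (0.0649). In Optn-/- against wild-type acetaminophen livers, 0 of the 13 were called by edgeR, beside 0.103% of all tested genes. An unadjusted p under 0.05 was seen for 2 of the 13, and for 1024 of all 11677 tested genes. Bmp10, an endothelial and cardiac ligand, had the smallest p of them, with 1.31 and 1.62 FPKM in Optn-/- livers, 0.488 and 0.555 FPKM in wild-type acetaminophen livers and 0.52 and 0.684 FPKM in controls (log2 fold change 1.46 ± 0.27, adjusted p 0.274).

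Downstream of the FGF receptors, 5 of 6 tested genes of the ERK feedback list rose in wild-type acetaminophen livers and 0 fell. Over all tested genes 8.36% rose and 5.92% fell. The list had a median log2 fold change of 1.49, beside 0.03 for all tested genes. Etv5 reached the tested mean of 0.5 FPKM only through the treated livers, as its control mean was 0.477 FPKM. Another 4 of the 10 listed genes, Spry2, Il17rd, Etv1 and Etv4, did not reach it and enter neither the count nor the median. Without a filter, 5 genes of the list rose and 0 fell. Genes of this list answer to many receptors that use ERK, not to FGF receptors alone. Dusp6, the gene of an ERK phosphatase, was at 19.51 and 21.07 FPKM in Optn-/- livers, 18.74 and 16.69 FPKM in wild-type acetaminophen livers and 6.37 and 3.15 FPKM in controls (2.10 ± 0.34 on the log2 scale in wild type, edgeR adjusted p 0.0159). Etv5, an ERK-induced transcription factor gene, was at 2.4 and 1.56 FPKM in Optn-/- livers, 1.33 and 1.56 FPKM in wild-type acetaminophen livers and 0.5 and 0.455 FPKM in controls (1.81 ± 0.29, adjusted p 0.0156). The treated values lay above both controls for each of these genes. Spred1, Spred2 and Spry4, which encode inhibitors of RAS to ERK signalling, rose by 1.88, 1.17 and 1.02 with adjusted p between 0.0315 and 0.0362, and Spry1 had a log2 fold change of 0.75 (adjusted p 0.0895). The number called was 1 without wild-type acetaminophen replicate 1 or 4 or control 6, 2 without control 3 and 3 without either Optn-/- library. It was 3 with total count scaling and 1 with a library set term. Neutrophil markers summed to 157 and 205 CPM in Optn-/- livers 4 and 5, 151 and 72.6 CPM in wild-type acetaminophen livers 1 and 4, and 2.25 and 5.95 CPM in controls. Like these genes and both hormones, the markers were higher in all treated livers than in controls, and their part was not tested. Among the treated livers their order was that of neither hormone. Of 13 tested adaptor and cascade genes, 0 rose and 1 fell, namely Plcg1 (log2 fold change -1.55, edgeR adjusted p 0.0363), beside 14.3% of all tested genes called. DESeq2 called 3 of the 13 higher and 2 lower, beside 1683 higher and 1419 lower of all 11677 tested genes. Plcg1 overlaps Zhx3, which reached 4207 counts on the opposite strand, so its values are uncertain, and its call was lost without either control (adjusted p 0.113 without 3 and 0.11 without 6) or either Optn-/- library (0.078 without 4 and 0.0776 without 5).

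Of 9 genes of bile acid synthesis and its control by the FGFR4 and beta-Klotho pair, 1 fell and 0 rose in wild-type acetaminophen livers, with a median log2 fold change of -0.54 beside 0.03 for all tested genes, and 14.3% of all tested genes were called. Cyp7a1, the rate-limiting enzyme gene of bile acid synthesis, was at 1.38 and 1.31 FPKM in Optn-/- livers, 3.34 and 2.71 FPKM in wild-type acetaminophen livers and 23.34 and 29.67 FPKM in controls. The 3 groups do not overlap, and the Optn-/- livers were the lowest. It fell by 2.91 in wild-type acetaminophen livers (standard error 0.19, edgeR adjusted p 0.00179), and the further difference of -1.20 ± 0.19 in Optn-/- against wild-type acetaminophen livers did not pass the test (adjusted p 0.204). Nr1h4, which encodes the bile acid receptor FXR, was at 14.27 and 13.75 FPKM in Optn-/- livers, 18.85 and 25.44 FPKM in wild-type acetaminophen livers and 61.43 and 38.27 FPKM in controls. All its treated values lay below both controls. It had -0.97 ± 0.26 in wild type (adjusted p 0.0615) and fell by 1.65 in Optn-/- acetaminophen livers against controls (adjusted p 0.0115), a call lost without Optn-/- replicate 4 (0.06) or 5 (0.0833). Slc10a1, the gene of the bile acid uptake carrier NTCP, had -0.54 ± 0.14 in wild type (adjusted p 0.0615), and Abcb11, that of the bile salt export pump, had 0.44 ± 0.13 (adjusted p 0.0772). Nr0b2, which encodes the repressor SHP, was at 17.19 and 13.83 FPKM in Optn-/- livers, 17.69 and 10.44 FPKM in wild-type acetaminophen livers and 36.99 and 22.75 FPKM in controls, and was not called (-0.87 ± 0.36, adjusted p 0.157). Cyp8b1, a later enzyme of the pathway, was at 152.91 and 94.6 FPKM in Optn-/- livers, 77.41 and 73.69 FPKM in wild-type acetaminophen livers and 106.57 and 141.86 FPKM in controls (-0.50 ± 0.27, adjusted p 0.256). With total count scaling, 4 of the 9 genes fell, beside 1470 of all 11677 tested genes. DESeq2 called 1 of the 9 higher and 4 lower, beside 1683 higher and 1419 lower of all tested genes.

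Among 13 genes of transcription factors known to act on Fgf21 or Gdf15, 5 rose and 1 fell in wild-type acetaminophen livers. Over all tested genes 8.36% rose and 5.92% fell. The median log2 fold change of the 13 was 0.54, beside 0.03 for all tested genes. Atf3 was at 171.53 and 152.05 FPKM in Optn-/- livers, 160.44 and 171.35 FPKM in wild-type acetaminophen livers and 0.925 and 0.793 FPKM in controls, which is 7.80 ± 0.19 on the log2 scale in wild type (adjusted p 0.000192 by edgeR). Egr1, an immediate-early gene, rose by the same 7.80 (standard error 0.21). Both stood above Gdf15 and Fgf21 in fold change. Ddit3, which encodes CHOP, was at 82.27 and 53.22 FPKM in Optn-/- livers, 80.61 and 83.62 FPKM in wild-type acetaminophen livers and 3.59 and 4.25 FPKM in controls (4.60 ± 0.27, adjusted p 0.00144), though it overlaps Mars on the opposite strand and whether counting used strand is unknown.

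Atf4 was at 61.33 and 120.45 FPKM in Optn-/- livers, 112.7 and 94.91 FPKM in wild-type acetaminophen livers and 26.03 and 37.82 FPKM in controls. All treated livers lay above both controls, and Optn-/- replicate 4, the liver with the most Fgf21, had the least Atf4 of the treated ones. The rise in wild-type acetaminophen livers was 1.92 ± 0.35 (edgeR adjusted p 0.0215), lost when wild-type acetaminophen replicate 1 was left out (adjusted p 0.078), without control 3 (0.104) or 6 (0.0578), and with a library set term (0.0544). Rora rose by 1.35 ± 0.14 (adjusted p 0.00484). Mlxipl, which encodes the carbohydrate sensor ChREBP, fell by 0.72 (standard error 0.14, adjusted p 0.0272), lost without either treated wild-type library (0.117 without 1 and 0.0658 without 4) or either control (0.133 without 3 and 0.0675 without 6). Of 7 genes of integrated stress response kinases and their feedback, 2 rose and 0 fell, beside 8.36% and 5.92% of all tested genes. Their median was 0.49, beside 0.03 for all tested genes. Those that rose were Trib3 (3.46 ± 0.40, adjusted p 0.00696), the gene of an ATF4 inhibitor, and Ppp1r15a (2.97 ± 0.30, adjusted p 0.00457), the gene of the phosphatase subunit GADD34.

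PPAR-alpha is the fasting-sensitive nuclear receptor known to drive Fgf21. Its gene Ppara was at 6.41 and 8.23 FPKM in Optn-/- livers, 5.77 and 7.01 FPKM in wild-type acetaminophen livers and 7.06 and 7.66 FPKM in controls, and both treated wild-type values lay below both controls in FPKM but overlapped them in TMM-scaled CPM. The wild-type difference was 0.00 ± 0.16 on the log2 scale (edgeR adjusted p 0.988). Of 12 target genes, 2 rose and 7 fell in wild-type acetaminophen livers, beside 8.36% and 5.92% of all tested genes. Their median log2 fold change was -0.86, beside 0.03 for all tested genes. Fgf21 rose in the same livers, and the part of PPAR-alpha in these changes was not tested. Cyp4a10, the gene of a fatty acid omega-hydroxylase, was at 223.07 and 176.38 FPKM in Optn-/- livers, 18.83 and 15.42 FPKM in wild-type acetaminophen livers and 162.67 and 147.45 FPKM in controls. The wild-type acetaminophen livers stand far below both other groups. Cyp4a14, a gene of the same enzyme family, was also far lower in wild-type acetaminophen livers, at 3.89 and 3.13 FPKM. It was at 119.14 and 76.89 FPKM in Optn-/- livers and 79.27 and 43.1 FPKM in controls, and these 2 groups overlap, unlike for Cyp4a10. In wild-type acetaminophen livers Cyp4a10 fell by 2.97 and Cyp4a14 by 3.91 on the log2 scale (adjusted p 0.00207 and 0.00522). The 2 genes are close paralogs, so reads could be split between them.

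Against wild-type acetaminophen livers, Cyp4a10 and Cyp4a14 were the only listed genes called in Optn-/- livers, 2 of 104 tested. Over all tested genes 0.103% were called. Cyp4a10 was higher by 3.51 ± 0.21 (edgeR adjusted p 0.0103) and Cyp4a14 by 4.77 ± 0.42 (adjusted p 0.0401), whereas Fgf21, a target of the same receptor, differed by 0.27 ± 0.50. The Cyp4a10 call was lost without Optn-/- replicate 4 (adjusted p 0.0542) or wild-type acetaminophen replicate 1 (0.057) or 4 (0.0629), and the Cyp4a14 call was lost without any 1 of the 4 treated libraries (0.0845 to 0.203). With a library set term the adjusted p was 0.0934 for Cyp4a10 and 0.0699 for Cyp4a14. Vnn1, the gene of pantetheinase, was also lowest in wild-type acetaminophen livers, without passing the test between genotypes. It was at 11.97 and 9.98 FPKM in Optn-/- livers, 3.11 and 3.09 FPKM in wild-type acetaminophen livers and 19.6 and 13.13 FPKM in controls (1.79 ± 0.24 in Optn-/- over wild-type acetaminophen livers, adjusted p 0.147), and it fell by 2.19 in wild-type acetaminophen livers against controls (adjusted p 0.00608). Pdk4, a PPAR-alpha target that also answers to fasting, was at 3.43 and 9.39 FPKM in Optn-/- livers, 2.57 and 1.99 FPKM in wild-type acetaminophen livers and 0.65 and 0.402 FPKM in controls.

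Among 20 other genes of hormones and signalling proteins secreted by hepatocytes, 4 rose and 2 fell in wild-type acetaminophen livers. Over all tested genes 8.36% rose and 5.92% fell. The median log2 fold change of the 20 was -0.03, beside 0.03 for all tested genes. Igfbp1, which encodes an IGF-binding protein induced by fasting and stress, was at 835.26 and 1060.1 FPKM in Optn-/- livers, 1032.37 and 842.92 FPKM in wild-type acetaminophen livers and 12.06 and 16.17 FPKM in controls, which is 6.27 ± 0.26 on the log2 scale in wild type (adjusted p 0.000798 by edgeR). It exceeded Gdf15 and Fgf21 both in FPKM level and in log2 fold change. Lcn2, the gene of the acute-phase protein lipocalin 2, was at 431.24 and 170.87 FPKM in Optn-/- livers, 177.86 and 260.78 FPKM in wild-type acetaminophen livers and 3.38 and 9.28 FPKM in controls (5.32 ± 0.71, adjusted p 0.01). Its treated livers stand in the order Optn-/- 4, wild type 4, wild type 1 and Optn-/- 5. Tsku, a hepatokine gene, fell by 2.64 (standard error 0.31, adjusted p 0.00706). Lect2, a chemokine-like hepatokine gene, had the smallest p of these 20 between genotypes. It was at 27.54 and 25.54 FPKM in Optn-/- livers, 47.3 and 67.58 FPKM in wild-type acetaminophen livers and 108.15 and 85.76 FPKM in controls (-1.14 ± 0.21 in Optn-/- over wild-type acetaminophen livers, adjusted p 0.276). Agt and Angptl4 also rose, by 1.43 and 0.84, with calls that did not hold in every alternative (without control 3, adjusted p 0.0647 for Agt, and without control 6, adjusted p 0.0962 for Angptl4).

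**Figure D5:**
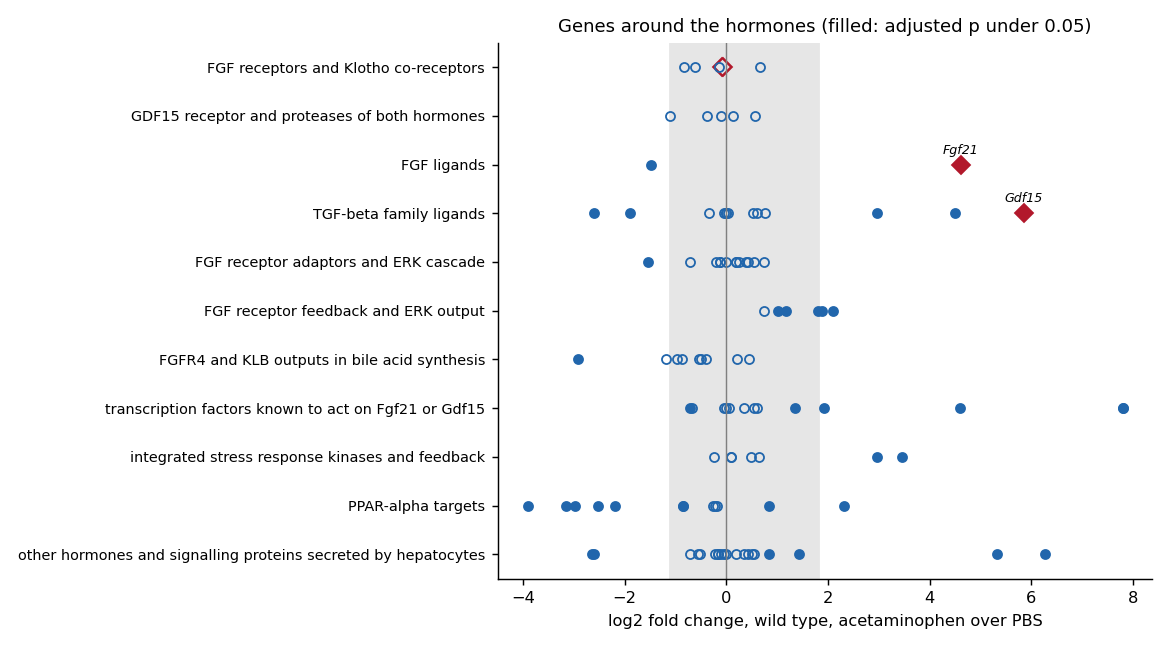
Log2 fold changes in wild-type acetaminophen livers over controls (x axis) of the tested genes of each list, 1 point per gene, filled where the adjusted p was under 0.05, with the range from the 5th to the 95th percentile of all tested genes shaded. Fgf21 at 4.61 and Gdf15 at 5.85 lie outside the shaded range of -1.10 to 1.83, as do a number of other listed genes, with Atf3 and Egr1 at 7.80 and Igfbp1 at 6.27 the farthest on the high side.

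Over all lists, 104 of 140 genes were tested, and 21 rose and 14 fell in wild-type acetaminophen livers against controls, beside 8.36% of all tested genes higher and 5.92% lower. The lists were chosen with results known, so nothing is read from this excess. Of these 35 calls, 18 held in every alternative that gave a value, Fgf21 and Gdf15 among them. In Optn-/- acetaminophen livers against controls 25 rose and 11 fell, beside 12.2% and 8.05% of all tested genes, and 17 of the 36 held.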

How the data were processed

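Poly(A) RNA of 6 livers was sequenced as paired ends, per the labels' protocols, which also mention an adipose type although every tissue label is liver. The deposited table holds whole-number counts per gene and library without normalization, per the file headers and values, and FPKM values that the authors computed. A count of 0 is listed at 0.0001 FPKM. The build mm8 and the tool Bowtie 0.12.2 are listed, per the submitters' processing notes, but the coordinates equal those of GENCODE M21 (GRCm38) for 51991 of 55144 genes. The counter and its use of strand were not given in the sources used here.

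Samples were grouped by their titles. The 11677 genes whose FPKM averaged 0.5 or more over all libraries were fitted with edgeR 4.0.16 (quasi-likelihood, TMM, 3 group means over all 6 libraries), with Benjamini-Hochberg adjustment over all of them and a threshold of 0.05. The script was tested on simulated data. R 4.3.3 and Python 3.11.15 were used. Alternatives were DESeq2 1.42.0 (size factors and Wald test), total count scaling, limma 3.58.1 on log2(FPKM + 0.5) and log2(FPKM + 0.1), no filter, a filter at 5 FPKM, only the compared groups, each library left out, and a term for the library set, which was chosen after seeing the data. With 2 against 2 livers an exact two-sided permutation test cannot go below 0.333, so none was used. The precision is limited by total counts of 59.1 to 77.3 M and by 2 animals per group. The 4 genes and all lists were chosen with earlier results of these data known. From each list the rule names up to 4 tested genes with the smallest p in treated wild type over control and up to 3 in Optn-/- over wild type. Some genes under the rule are left out of the text, and others were added where they bear on a hormone or receptor (Furin, Fap, Ret, Ppara, Nr0b2, Atf4, Pdk4, Mlxipl, Agt, Angptl4, Inhbc and the remaining called genes of a list), which were chosen after their values were seen. Of the genes closest in pattern to Gdf15, 1 is not reported here.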

Additional observations from a re-analysis of the deposited data

How the results depend on the processing

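The calls of Fgf21 and Gdf15 against controls held in all 15 alternatives. For wild-type acetaminophen livers over controls the log2 fold change ran from 3.21 (limma on log2(FPKM + 0.5)) to 5.04 for Fgf21, with a largest adjusted p of 0.0491 without control 6, and from 5.05 to 6.50 for Gdf15. Klb and Fgfr4 were called in none of their alternatives, and Klb has no value at the 5 FPKM filter.

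Directions turned where differences were small. Klb in wild-type acetaminophen livers over controls ran from -0.24 to 0.06 with 1 library left out, and Fgf21 in Optn-/- over wild-type acetaminophen livers from -0.39 to 0.88. The Gdf15 difference between genotypes was 0.78 with a library set term. Fgfr4 in Optn-/- acetaminophen livers over controls was -0.10 with total count scaling, -0.09 with limma at either pseudocount and -0.07 to 0.22 with 1 library left out.

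The number of genes called moved by more than 1.5 times in several settings, and the cause was not tested. For wild-type acetaminophen livers over controls, 1667 became 3102 with DESeq2, 819 at 5 FPKM and 812 with a library set term, and 494 to 1263 with 1 library left out. For Optn-/- over wild-type acetaminophen livers, 12 became 283 with DESeq2, 27 with limma on log2(FPKM + 0.5), 37 without a filter, 30 with only the compared groups and 3 with the library set, and 1 to 28 with 1 library left out. For Optn-/- acetaminophen livers over controls, 2366 became 3619 with DESeq2, 1035 at 5 FPKM and 960 with the library set, and 750 to 2201 with 1 library left out. Of listed genes, 21 to 32 were called in wild-type acetaminophen livers with 1 library left out, in place of 35. Between genotypes the 2 listed calls became 7 with DESeq2 and 0 with the library set, and 0 to 2 with 1 library left out. In Optn-/- acetaminophen livers over controls, 36 became 21 at 5 FPKM and 18 to 37 with 1 library left out.

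No paired analysis was possible because the groups share only replicate number 4, between treated Optn-/- and wild-type livers, and nothing says that it marks a shared cage, litter or day. With 2 animals per group, differences between genotypes smaller than the printed intervals could not be resolved.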

Other observations

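The genes next to the hormone genes were read as a description of the regions. Within 50 kb of Fgf21 lie 11 other genes of the table, of which 3 were tested in wild-type acetaminophen livers over controls. Of these 3, 1 rose and 2 fell, beside 8.36% and 5.92% of all tested genes, and nothing is read from so few genes. Rasip1, the gene of an endothelial Ras-interacting protein 12.0 kb away, rose by 1.17 (edgeR adjusted p 0.0209). Bcat2, a branched-chain aminotransferase gene 24.2 kb away, fell by 1.23 (adjusted p 0.0201), and 0610005C13Rik, 38.6 kb away, fell by 0.92 (adjusted p 0.0409). Within 50 kb of Gdf15 lie 7 genes, of which 6 were tested, and 1 rose and 0 fell beside the same shares of all tested genes. The gene that rose was Ell, an elongation factor gene 36.5 kb away, at 0.94 (edgeR adjusted p 0.0212). The log2 fold changes of these called neighbours were smaller than those of Fgf21 (4.61) and Gdf15 (5.85).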
